A study of Drosophila melanogaster with 13 samples.

Results

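Testes of magn mutant males were compared directly with testes of sa mutant males, using 4 magn and 3 sa arrays among the 13 Affymetrix Drosophila 2 arrays of the series, 1 array per sample. The magn arrays were 2 of magn[12c]/magn[23b] and 2 of magn[12c]/magn[12c];pSC2, and the labels do not say what pSC2 is, although the short sample names write this genotype with Sc2e. The 3 sa arrays were all of sa[1]/sa[2]. The other 6 arrays, 3 of aly[2]/aly[5p] and 3 of the strain red[1], e[1] that the labels call WT, are given here only as levels beside the comparison. Adults 0 to 1 day after eclosion, kept at 25 °C, were dissected for testes free of seminal vesicles and accessory glands. The labels number the arrays of each genotype as replicates and do not say whether these came from separate crosses or dissections. The p-values therefore measure only the spread between samples within groups, estimated over all 13 arrays. The magn combinations formed 1 group except where they were compared separately. Genes entered the comparison through probe sets of exactly 1 gene symbol that read above a log2 value of 4 in at least 3 of the 7 arrays, with the brightest probe set standing for its gene. This left 8369 of 11983 genes.

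Both mutants belong to the meiotic arrest class of Drosophila spermatogenesis, in which spermatocytes mature but do not complete the meiotic divisions or form spermatids. The gene sa (spermatocyte arrest) encodes 1 of the testis TAFs, TBP-associated factors made only in the testis, and is a relative of a subunit of the general transcription factor TFIID, and the testis TAFs are known to switch on spermatid differentiation genes in spermatocytes. The name magn (magellan) stands for mutations in Ubi-p63E, a polyubiquitin gene whose product is cut into the ubiquitin monomers that mark proteins for degradation and signalling. The gene aly (always early) encodes a subunit of tMAC, the testis-specific meiotic arrest complex, which acts on many of the same spermatid genes. Spermatid genes are transcribed largely in spermatocytes and their messages are stored until after meiosis, so such transcripts can be measured in testes that hold no sperm.

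In what follows, values are log2 GCRMA values, where a step of 1 is a 2-fold difference in signal. Per-array values are listed as magn[12c]/magn[23b] replicates 1 and 2, then magn[12c]/magn[12c];pSC2 replicates 1 and 2, then sa replicates 1 to 3. A difference is magn minus sa, given with its standard error from the linear model. A gene was called when its Benjamini-Hochberg adjusted p was under 0.05 and its difference was at least 2-fold. The files hold no scan dates, so batches of arrays were not examined.

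The arrays of the comparison were similar in range. Between 9641 and 9759 probe sets read above 4 in the magn arrays and between 9572 and 9613 in the sa arrays. Over all 18952 probe sets, arrays of the same magn combination correlated at 0.993 and 0.996, and arrays of different magn combinations at 0.982 to 0.984. The sa arrays correlated among themselves at 0.988 to 0.996, and magn with sa arrays at 0.941 to 0.969. In each of these arrays 30.5% to 32.1% of the probe sets stood at the lowest value, which raises such correlations. The control probe sets for the 3' and 5' ends of eIF4a differed by 1.94, 1.73, 2.62 and 1.99 in the magn arrays and by 3.19, 2.72 and 3.75 in the sa arrays, which do not overlap. The same difference for an actin gene overlapped between the groups, at 0.72, 0.54, 1.82 and 0.96 in the magn arrays and 1.15, 1.06 and 2.24 in the sa arrays, with sa replicate 3 the highest. The part of RNA quality in the results was not tested. The 18S rRNA control read between 10.31 and 12.75 in the magn arrays, and 6.99, 12.92 and 12.61 in the sa arrays.

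The mutated genes separated the genotypes completely. Ubi-p63E read 3.93, 5.47, 3.88 and 3.59 in magn testes, against 13.77, 13.67 and 13.57 in sa testes. Its means in the other strains were 14.71 in aly and 14.76 in WT testes. The groups were far apart, with a difference of -9.45 ± 0.32 (adjusted p = 3.4e-10), the largest of any gene tested. The sa gene went the other way, with 12.56, 12.49, 12.15 and 12.36 in magn testes, against 6.15, 6.25 and 5.84 in sa testes, a difference of 6.31 ± 0.15 (adjusted p = 4.37e-12). Its level in magn testes lay above the WT mean of 11.001. The genes aly and e, mutated in the other strains, were not called between magn and sa. The aly gene read 6.67, 6.54, 7.16 and 6.602 in magn testes, against 6.67, 6.74 and 7.81 in sa testes, so that the groups overlapped, with a difference of -0.33 ± 0.29 (adjusted p = 0.342). The e (ebony) gene, which encodes an enzyme of cuticle pigment synthesis, was between 2.26 and 2.66 in the magn arrays and between 2.50 and 2.57 in the sa arrays, below the filter.

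Genes next to Ubi-p63E and sa on chromosome arm 3L in the RefSeq gene table were then looked at, a choice made after their values were seen. Sc2, a neighbour of Ubi-p63E, read 10.92, 10.87, 10.99 and 11.03 in magn testes, against 13.02, 13.05 and 12.97 in sa testes. The magn arrays of both combinations were thus lower than the sa arrays, by 2.06 on average. The aly mean of 13.11 lay near the sa arrays and the WT mean of 11.17 near the magn arrays. Of the other neighbours of Ubi-p63E, Lamtor4, which encodes a subunit of the Ragulator complex on lysosomes, had a difference of -2.08 (adjusted p = 4.18e-05), while Ccz1 at -0.27 and ida at -0.45 were not called. Beside sa, rgn (regeneration) was higher in magn testes by 2.32 (adjusted p = 0.00345) and barc differed by -0.16, which was not called.

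Across all genes, 3261 of 8369 (39.0%) were called, 1612 (19.3%) higher and 1649 (19.7%) lower in magn than in sa testes. The arrays of the 2 groups did not overlap for 5029 genes (60.1%), among them 3133 of the 3261 called. The large differences were mostly upward: with values under 4 raised to 4, 647 called genes were at least 4-fold higher and 290 at least 4-fold lower, and 79 were at least 16-fold higher and 15 at least 16-fold lower. For 167 of the genes called higher all sa arrays read at or under 4, and for 95 of those called lower all magn arrays did; such genes passed the filter only through the group in which they were high. The median difference over all genes was -0.22. When each array was centred on 28 cytosolic ribosomal protein genes, all differences moved up by 0.41 and the calls became 2133 higher and 842 lower, so that 71.7% of calls were upward against 49.4% as reported. The median level of these genes itself differed between the groups, at 13.90 to 14.37 in the magn and 14.61 to 14.66 in the sa arrays. It was 14.51 to 14.70 in the aly and 12.94 to 13.36 in the WT arrays. Which scaling is nearer to the RNA content was not tested. Under this centring the medians of 13 of the 46 lists moved from below 0 to above 0, among them that of the ribosomal protein list itself. Counts of list members below are to be read against 19.3% called higher and 19.7% called lower over all genes, and a share near these is not a result about a list.

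**Figure D1:**
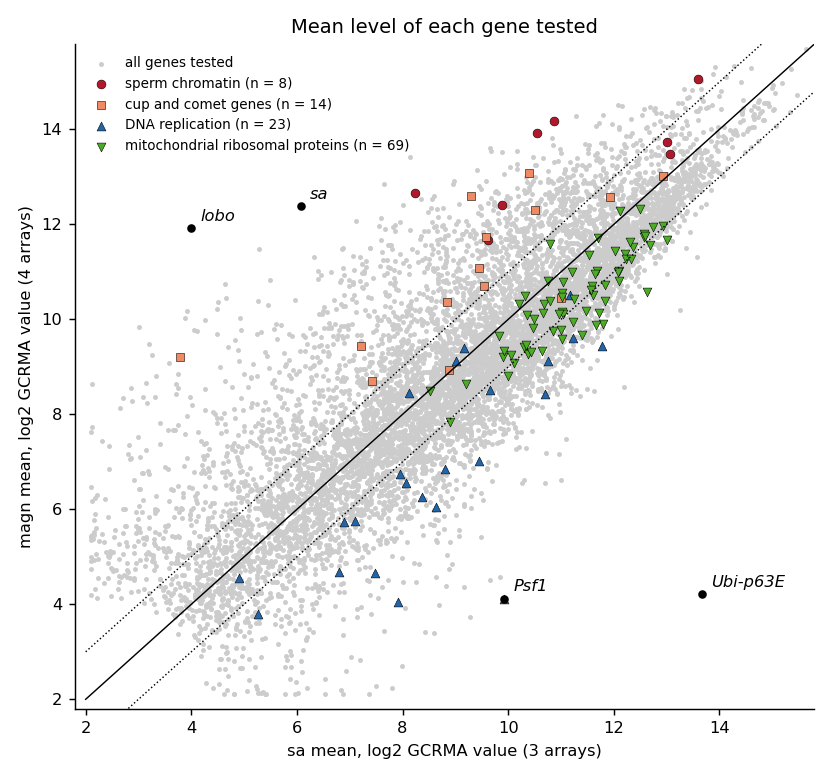
Mean log2 GCRMA value of each of the 8369 genes tested, in the 4 magn arrays (vertical axis) and the 3 sa arrays (horizontal axis); the solid line marks equal levels and the dotted lines a 2-fold difference. Sperm chromatin and cup and comet genes lie mostly above the upper dotted line, DNA replication genes mostly below the lower one and mitochondrial ribosomal protein genes on both sides of it, and Ubi-p63E, sa, lobo and Psf1 are among the genes farthest from the diagonal.

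The 12 largest upward differences were ranked among called genes whose groups do not overlap, so lack of overlap in these genes is part of their choice. The gene lobo (lost boys), which encodes a sperm flagellar protein, read 12.50, 12.57, 11.45 and 11.19 in magn testes, against 5.19, 3.70 and 3.12 in sa testes. Its lowest magn array stood 6.01 above its highest sa array, and the difference was 7.93 ± 0.44 (adjusted p = 1.75e-08); a second probe set of the gene differed by 4.48. The gene dtr, whose vertebrate relative is needed to assemble axonemal dyneins, read 11.49, 11.66, 10.60 and 10.36 in magn testes, against 7.39, 6.45 and 5.39 in sa testes, a difference of 4.62 ± 0.46 (adjusted p = 1.71e-06). For both genes the WT mean lay within the range of the magn arrays, at 11.99 for lobo and 11.57 for dtr.

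Of testis-specific parts of the gamma-tubulin ring complex, from which microtubules grow, t-Grip91 and t-Grip128 were in this ranking. t-Grip91 read 10.89, 11.03, 10.38 and 9.55 in magn testes, against 6.34, 3.78 and 3.85 in sa testes, a difference of 5.80 ± 0.56 (adjusted p = 1.37e-06). t-Grip128 read 9.48, 9.48, 8.22 and 7.49 in magn testes, against 2.89, 3.31 and 3.24 in sa testes. All sa arrays of t-Grip128 were under 4, so its level in magn testes was at least 25.4-fold higher than in sa testes when counted against 4. ZnT33D, a zinc transporter gene, was likewise under 4 in all sa arrays. It read 9.60, 9.75, 8.78 and 8.84 in magn testes, against 3.42, 3.23 and 3.14 in sa testes, at least 37.9-fold higher. COX6AL2, a paralog of a cytochrome c oxidase subunit, read 11.69, 11.79, 10.78 and 10.98 in magn testes, against 7.53, 6.29 and 5.18 in sa testes. Vha36-2, a paralog of a subunit of the vacuolar proton pump, read 10.36, 10.57, 9.17 and 8.97 in magn testes, against 5.84, 3.73 and 5.27 in sa testes. The spread among the sa arrays was wider than among the magn arrays for t-Grip91, COX6AL2 and Vha36-2.

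The remaining 4 of the 12 largest upward differences were Mst36Fa, Cyp4ad1, ymp and t-cup. Mst36Fa, a male-specific transcript, read 10.75, 10.83, 9.60 and 9.49 in magn testes, against 5.57, 3.60 and 2.60 in sa testes. Cyp4ad1, a cytochrome P450 gene, read 10.95, 11.02, 10.70 and 10.70 in magn testes, against 4.90, 5.52 and 6.08 in sa testes. The sa arrays spread more widely than the magn arrays in both genes. For ymp the values were 13.70, 13.60, 13.13 and 13.29 in magn testes, against 9.46, 7.95 and 6.999 in sa testes, and 3 probe sets of the gene differed by 5.29 to 6.18. For t-cup, whose messages collect at the tips of elongating spermatids, they were 10.18, 10.32, 8.32 and 7.98 in magn testes, against 5.41, 3.16 and 2.80 in sa testes. Cyp4ad1 was the 1 gene of these 4 whose magn arrays were all above the WT mean, at 9.09; for t-cup the WT mean of 12.36 was above all magn arrays.

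**Figure D2:**
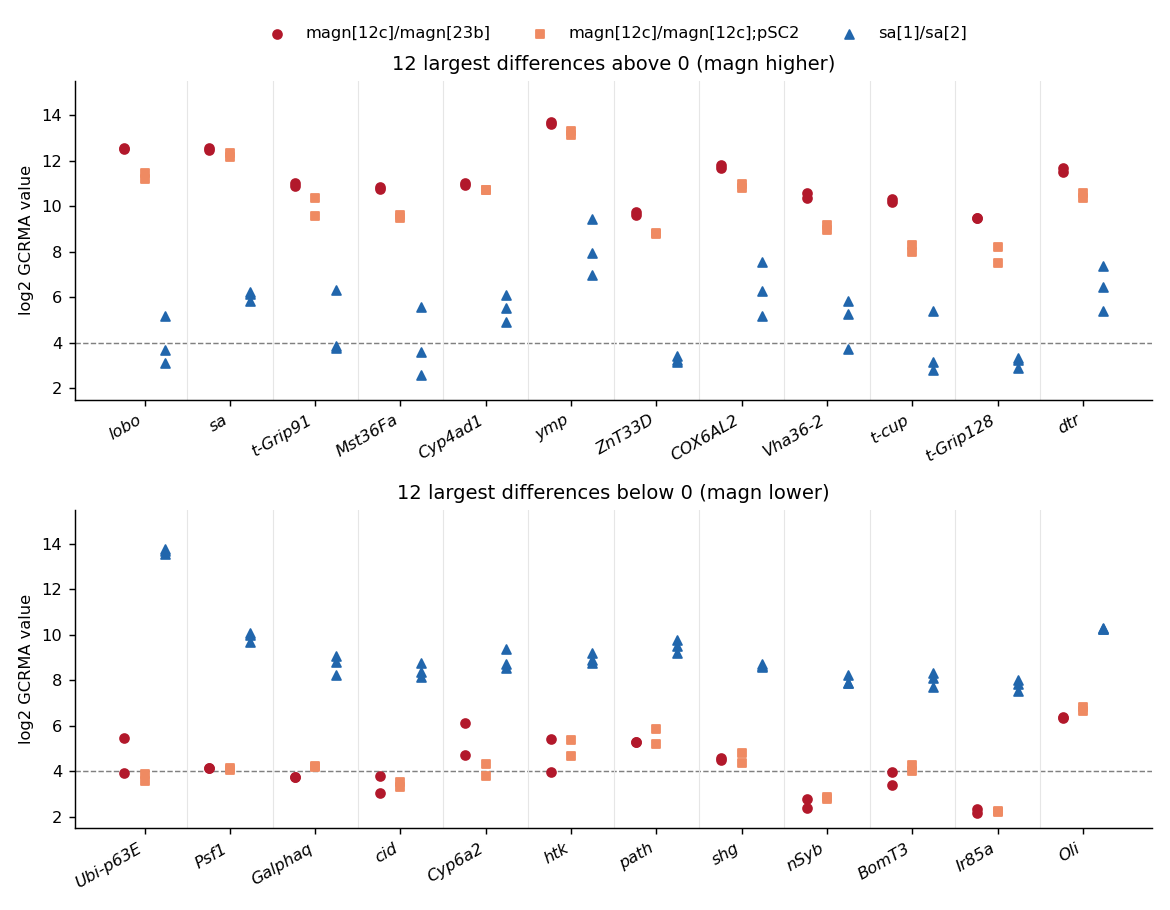
Log2 GCRMA value of every magn and sa array for the 12 largest upward (top) and 12 largest downward (bottom) differences among named genes whose groups do not overlap; circles are magn[12c]/magn[23b], squares magn[12c]/magn[12c];pSC2, triangles sa[1]/sa[2], and the dashed line is the log2 value of 4 used as the filter. In 12 of the 12 upper genes both magn[12c]/magn[12c];pSC2 arrays lie below both magn[12c]/magn[23b] arrays.

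The list of sperm chromatin genes, which encode the small basic proteins and transition proteins that replace histones in spermatid nuclei, had 6 of 8 members called higher and none lower, and a median difference of 2.30 against -0.22 for all genes. ProtB, a protamine gene, read 13.04, 12.89, 12.58 and 12.17 in magn testes, against 9.03, 7.89 and 7.80 in sa testes, a difference of 4.43 ± 0.30 (adjusted p = 7.2e-08). Its partner ProtA read 14.41, 14.05, 14.23 and 14.05 in magn testes, against 11.10, 10.86 and 10.66 in sa testes, a difference of 3.31 ± 0.15. In both genes all magn arrays were above all sa arrays. Mst33A differed by 3.39 and Prtl99C by 2.54, both genes of protamine-like proteins. Mst77F, a linker histone-like gene, averaged 15.06 in magn and 13.60 in sa testes and differed by 1.46, while tHMG1 and tHMG2, at 0.74 and 0.43, were not called. The median level of the list was between 13.18 and 13.92 in the magn arrays, between 10.12 and 11.23 in the sa arrays, between 8.65 and 9.05 in the aly arrays and between 13.96 and 14.20 in the WT arrays. In whole-testis RNA fewer cells of a type and less RNA per cell cannot be told apart, here and in all that follows.

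Transcripts of the Mst and don juan list, male-specific and sperm tail genes, had 7 of 15 members called higher and none lower (median 0.91). The count was 13 under the ribosomal protein centring. As reported, dj (don juan), a sperm tail protein gene, read 11.04, 10.56, 10.42 and 10.01 in magn testes, against 7.63, 7.35 and 5.72 in sa testes, without overlap. The others besides Mst36Fa were janB at 3.00, Mst89B at 2.81, djl at 2.72, Mst84Dd at 1.99 and fzo. The members that were not called included Mst84Da, Mst84Db, Mst84Dc, Mst87F, Mst98Ca and Mst98Cb, all between 0.44 and 0.91. Several of these genes are near copies of one another, and a probe set may read more than 1 of them.

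Of the cup and comet genes, whose messages are made or placed late in spermatid elongation, 10 of 14 were called higher and none lower (median 1.57). The w-cup gene read 12.93, 13.19, 12.19 and 12.11 in magn testes, against 10.89, 9.17 and 7.82 in sa testes, with sa replicate 1 well above the other sa arrays, and a difference of 3.31 ± 0.51 (adjusted p = 8.29e-05). The c-cup gene read 13.32, 13.40, 12.82 and 12.81 in magn testes, against 10.52, 10.19 and 10.47 in sa testes, a difference of 2.69 ± 0.21 with a narrow spread in both groups. The gene sunz read 10.18, 10.24, 8.76 and 8.60 in magn testes, against 7.47, 6.89 and 7.26 in sa testes, so that the magn combinations stood apart by 1.53 while all 4 magn arrays were above the sa arrays. The members hale at -0.55, soti at 0.06, m-cup at 0.09 and boly at 0.65 were not called. Median levels of the list were 10.35 to 11.64 in the magn arrays, 9.11 to 9.89 in the sa arrays, 6.12 to 6.44 in aly testes and 12.50 to 12.61 in WT testes.

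Among axonemal dyneins and their assembly factors, 3 of 12 were called higher and 1 lower (median 0.59), a share of upward calls not far from the 19.3% over all genes, and 6 were higher under the ribosomal protein centring. Dic61B, a dynein intermediate chain gene, read 10.58, 11.29, 10.41 and 10.43 in magn testes, against 7.40, 7.30 and 7.005 in sa testes, a difference of 3.44 ± 0.24 (adjusted p = 1.07e-07). Dnah3 at 1.799 was also higher, whereas Dhc16F, a heavy chain gene on the X chromosome, was lower. It read 6.77, 7.97, 6.50 and 6.16 in magn testes, against 8.51, 8.24 and 8.496 in sa testes, where the highest magn array came close to the lowest sa array. The tubulin betaTub85D, the beta-tubulin of the male germline, was higher by 1.66, and alphaTub85E lower by 1.52. In the list of intraflagellar transport and tektin genes 3 of 15 were called each way: Oseg1 at 2.67, IFT52 at 2.34 and IFT43 at 1.60 were the 3 that were higher, and the kinesin gene Klp68D at -1.54 was among the 3 that were lower. IFT52 read 9.77, 10.37, 8.83 and 9.23 in magn testes, against 7.499, 7.24 and 6.89 in sa testes, and its WT mean was 3.70, below the sa arrays.

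Testis-specific paralogs of housekeeping complexes were compared with their general counterparts. Of 13 testis proteasome paralogs 7 were called higher and none lower (median 1.19), while of 26 general proteasome subunits 3 were called lower and none higher (median -0.62), with no call either way under the ribosomal protein centring. Prosalpha4T1 read 10.78, 10.80, 9.35 and 8.67 in magn testes, against 7.11, 6.52 and 7.49 in sa testes. Its general counterpart Prosalpha4 read 10.79, 10.06, 10.65 and 10.91 in magn testes, against 11.35, 11.62 and 12.06 in sa testes. All magn arrays were thus above all sa arrays for the testis paralog and below them for the general subunit. Prosbeta4R1 read 12.26, 12.03, 11.12 and 10.78 in magn testes, against 9.25, 9.14 and 9.35 in sa testes, a difference of 2.30 ± 0.30 (adjusted p = 2.01e-05). Prosbeta2R1 was higher by 1.29 and Prosbeta5R2 by 1.28. On the general side Prosbeta5, at -1.31, and Rpn1, at -1.22, were lower.

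The testis paralogs of the respiratory chain had 7 of 15 members called higher and 1 lower (median 0.96), against 1 of 47 higher and 4 lower for the general respiratory chain (median -0.56). ATPsynCF6L, a paralog of coupling factor 6 of the ATP synthase, read 13.90, 13.93, 13.35 and 13.21 in magn testes, against 11.16, 11.03 and 10.75 in sa testes, a difference of 2.61 ± 0.21 (adjusted p = 2.64e-07). ND-51L1 was higher by 1.87 and COX6CL by 1.59. When arrays were left out in turn, 5 to 8 members of the testis list were called higher. The spermatid fusion gene fzo (fuzzy onions), whose product joins spermatid mitochondria, read 11.39, 11.81, 10.31 and 10.23 in magn testes, against 9.12, 9.09 and 8.64 in sa testes, higher by 1.98, and was the 1 of 8 genes on a list of spermatid mitochondria that was called. In glycolysis 3 of 13 were higher and none lower: Ald1 at 2.88, Hex-t2, a testis hexokinase, at 1.75, and Pfk at 1.18. A second probe set of Ald1 differed by -0.19.

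The initiation factors eIF4E and eIF4G start translation at the cap of messages. Of 9 genes of this family 4 were called higher and 1 lower (median 0.84), and 8 had a difference above 0. eIF4E4 read 13.10, 13.15, 12.82 and 12.60 in magn testes, against 10.78, 10.28 and 10.38 in sa testes, a difference of 2.44 ± 0.17 (adjusted p = 1.1e-07), eIF4E7 was higher by 1.87 and eIF4E5 by 1.49. eIF4E6 read 9.44, 9.56, 9.84 and 9.75 in magn testes, against 11.61, 11.68 and 11.20 in sa testes, with every magn array below every sa array. Among 11 testis paralogs of ribosomal proteins 3 were higher, RpL10Aa at 2.21, RpL22-like at 1.496 and RpS28-like at 1.41, and RpS28a was lower at -1.95. These 3 were the only members with a difference above 0, and the list median was -0.81. RpL22-like averaged 12.67 in magn, 11.17 in sa and 5.76 in WT testes.

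**Figure D3:**
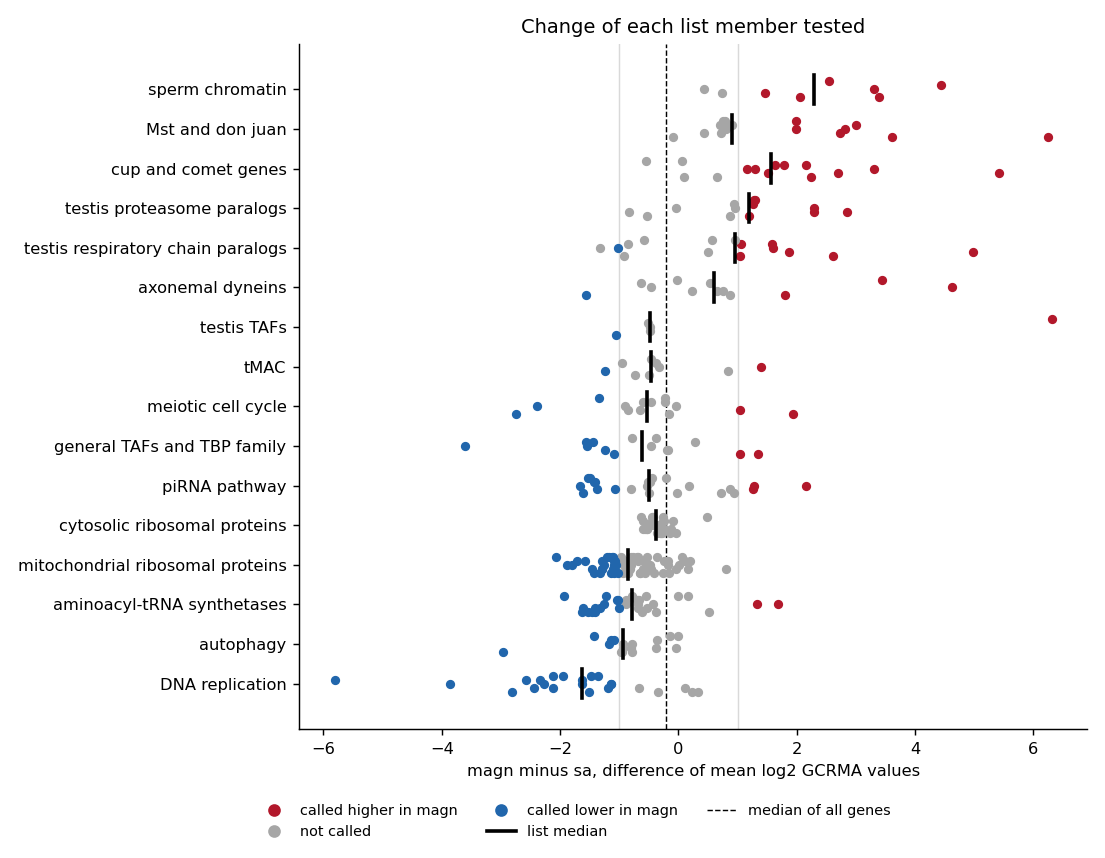
Magn minus sa difference of mean log2 GCRMA values for each member tested of 16 gene lists; red points were called higher in magn, blue points lower, grey points were not called, black bars are list medians and the dashed line is the median of all genes. Lists of spermatid genes lie to the right, with 6 of 8 sperm chromatin members called higher, and DNA replication lies farthest to the left, with 18 of 23 members called lower.

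DNA replication genes were lower in magn testes. Of 23 tested among 33 on the list, 18 were called lower and none higher, with a median of -1.63 against -0.22 for all genes. Psf1, a subunit of the GINS complex of the replicative helicase, read 4.13, 4.15, 4.15 and 4.05 in magn testes, against 9.69, 9.9997 and 10.08 in sa testes, a difference of -5.81 ± 0.20 (adjusted p = 3.4e-10), although its WT mean of 7.46 lay between the 2 groups. Its partner Psf2 was lower at -2.11, while the GINS genes Psf3 and Sld5, at 0.32 and 0.23, were not called. Prim2, a primase subunit, read 4.20, 4.50, 4.21 and 3.28 in magn testes, against 7.74, 7.66 and 8.36 in sa testes, a difference of -3.87 ± 0.37. PolA2, its partner in DNA polymerase alpha, read 4.14, 4.74, 4.82 and 4.97 in magn testes, against 7.19, 7.07 and 8.16 in sa testes. In these genes the magn arrays lay below the sa arrays without overlap. For the helicase subunit Mcm5 the values were 6.01, 5.76, 6.15 and 6.31 in magn testes, against 8.27, 8.54 and 9.10 in sa testes. Other members called lower were PCNA at -2.34, Orc4 at -2.44, Orc5 at -2.28, PolE1 at -2.13 and Mcm6 at -1.95.

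The list was then followed through all strains. The median level of the list was 6.34 to 6.80 in the magn arrays, 8.27 to 8.99 in the sa arrays, 9.61 to 9.80 in aly testes and 6.39 to 7.09 in WT testes. The magn and WT arrays overlapped in this measure, and the sa and aly arrays did not overlap with either. The count of members called lower was 16 to 18 when arrays were left out in turn and 14 under the ribosomal protein centring.

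The 12 largest downward differences were ranked in the same way. The gene cid, which encodes the centromeric histone H3 variant, read 3.05, 3.79, 3.54 and 3.30 in magn testes, against 8.37, 8.17 and 8.76 in sa testes, at least 21.6-fold lower when the magn arrays are counted as 4. The gene htk (hat-trick), a chromatin protein gene, read 3.98, 5.41, 5.37 and 4.66 in magn testes, against 8.74, 8.89 and 9.20 in sa testes. Rif1, a regulator of replication timing named after its values were seen, read 2.75, 3.00, 2.83 and 2.96 in magn testes, against 6.81, 6.72 and 7.53 in sa testes, all magn arrays being under 4. The cid and Rif1 genes passed the filter only through the sa arrays. For cid, htk and Rif1 the means were 8.88, 10.44 and 9.22 in aly and 4.02, 3.98 and 3.20 in WT testes.

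Other downward differences were in single genes of membranes and signalling. The gene path (pathetic), an amino acid transporter gene, read 5.30, 5.29, 5.88 and 5.19 in magn testes, against 9.76, 9.502 and 9.22 in sa testes, and the means of 9.31 in aly and 9.73 in WT testes were near the sa level. The synaptic vesicle gene nSyb read 2.78, 2.38, 2.77 and 2.87 in magn testes, against 7.87, 8.23 and 7.90 in sa testes, at least 15.98-fold lower against 4, with means of 8.06 in aly and 6.72 in WT testes. BomT3, an immune-induced peptide gene of the Bomanin family, read 3.98, 3.40, 4.30 and 4.02 in magn testes, against 7.73, 8.34 and 8.09 in sa testes, with means of 8.98 in aly and 8.41 in WT testes. In path, nSyb and BomT3 the magn arrays were thus below those of every other genotype on average.

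In another set, apart from Oli at its end, sa testes were higher than those of every other genotype. Galphaq, a G protein subunit of phototransduction, read 3.74, 3.74, 4.21 and 4.22 in magn testes, against 9.05, 8.82 and 8.22 in sa testes, with means of 5.04 in aly and 5.05 in WT testes. Shotgun (shg), the E-cadherin gene, read 4.59, 4.52, 4.80 and 4.37 in magn testes, against 8.70, 8.61 and 8.59 in sa testes, with means of 5.67 in aly and 5.32 in WT testes. Cyp6a2, a cytochrome P450 gene, read 6.12, 4.73, 4.33 and 3.79 in magn testes, against 8.56, 8.72 and 9.37 in sa testes. The magn arrays of Cyp6a2 were the most widely spread of these, and it averaged 2.45 in aly and 2.21 in WT testes. The ionotropic receptor gene Ir85a read 2.17, 2.34, 2.27 and 2.21 in magn testes, against 8.01, 7.54 and 7.83 in sa testes, at least 13.9-fold lower, with means of 2.47 in aly and 2.70 in WT testes. The last of the 12, Oli, a gene of a basic helix-loop-helix transcription factor, read 6.39, 6.35, 6.82 and 6.64 in magn testes, against 10.24, 10.27 and 10.30 in sa testes, with means of 10.68 in aly and 6.47 in WT testes.

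The transcription machinery to which sa belongs was examined next. The 4 testis TAFs besides sa had differences below 0, of which 1 was called. Taf12L read 12.89, 12.82, 13.28 and 13.06 in magn testes, against 14.16, 14.09 and 13.95 in sa testes, a difference of -1.06 ± 0.13 (adjusted p = 8.99e-06), and was called, but not after centring on ribosomal proteins or on all genes, with array weights or without magn[12c]/magn[23b] replicate 2. The genes nht, can and mia, relatives of Taf4, Taf5 and Taf6, differed by -0.51, -0.49 and -0.48 and were not called; their level in magn testes was 11.53, 9.90 and 9.79, at or above the WT means of 9.89, 9.59 and 8.65.

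General TAFs and the TBP family had 6 of 14 members called lower and 2 higher (median -0.62). Taf5, the general relative of can, read 4.79, 5.30, 5.44 and 5.70 in magn testes, against 8.51, 8.73 and 9.48 in sa testes, a difference of -3.60 ± 0.39 (adjusted p = 3.94e-06). Taf12 read 8.42, 8.15, 8.21 and 8.36 in magn testes, against 9.58, 9.93 and 10.04 in sa testes, a difference of -1.57 ± 0.18. Neither gene overlapped between the groups. Taf10b was lower at -1.55, Taf6 at -1.45, Taf10 at -1.25 and Taf8 at -1.09. Taf1 and Taf3, at 1.35 and 1.04, were the 2 that were higher, and without sa replicate 3 Taf3 was not called, at 0.59. Under the ribosomal protein centring 4 stayed lower, without Taf8 and Taf10. In aly testes Taf5 and Taf12 were at 9.44 and 10.11, and in WT testes at 3.87 and 7.95.

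Of the 9 tMAC genes 1 was called higher and 1 lower (median -0.46), and none was lower under the ribosomal protein centring. The homeodomain genes vis and achi went opposite ways, without overlap between the groups. For vis the values were 11.03, 11.04, 12.78 and 13.16 in magn testes, against 10.52, 10.71 and 10.61 in sa testes. The difference of 1.39 ± 0.43 (adjusted p = 0.0118) came with a gap of -1.93 between the combinations, the pSC2 arrays being the higher. For achi the values were 8.003, 7.64, 7.70 and 7.36 in magn testes, against 8.81, 8.90 and 9.06 in sa testes. The difference was -1.25 ± 0.20 (adjusted p = 9.58e-05). The other members were between -0.96 for comr and 0.83 for topi and were not called, among them aly itself, tomb at -0.73, mip40 at -0.46, Caf1-55 at -0.50 and wuc at -0.37. The zinc finger gene topi read 10.27, 10.72, 10.70 and 10.61 in magn testes, against 9.69, 9.62 and 9.92 in sa testes, with no overlap between the groups and a difference short of 2-fold, and it was called under the ribosomal protein centring.

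Of 14 genes of the meiotic divisions 2 were called higher and 3 lower (median -0.53), not far from the 19.3% and 19.7% over all genes. The B cyclin gene CycB read 8.03, 8.39, 6.98 and 6.22 in magn testes, against 9.70, 9.89 and 9.80 in sa testes, a difference of -2.39 ± 0.43 (adjusted p = 0.000281); its means were 4.44 in aly and 7.71 in WT testes. Cks30A, which encodes a small partner of cyclin-dependent kinases, read 8.89, 9.24, 7.36 and 7.34 in magn testes, against 11.15, 10.86 and 10.85 in sa testes, a difference of -2.75 ± 0.40 (adjusted p = 4.92e-05). In both genes all magn arrays were below the sa arrays and the magn[12c]/magn[12c];pSC2 arrays were the lowest. Incenp, of the chromosomal passenger complex, was lower at -1.35, though not under the ribosomal protein centring.

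The 2 members called higher were fzr2, an activator of the anaphase-promoting complex, and bol. fzr2 read 10.83, 11.12, 10.44 and 10.23 in magn testes, against 8.48, 8.49 and 9.17 in sa testes, a difference of 1.94 ± 0.24 (adjusted p = 1.37e-05), without overlap. The translational regulator bol (boule) read 12.36, 12.98, 12.76 and 12.71 in magn testes, against 12.31, 12.12 and 10.57 in sa testes; the difference of 1.04 ± 0.32 (adjusted p = 0.0115) was not called without sa replicate 3, the lowest array, where it was 0.49, nor with array weights, under the replicate block or without magn[12c]/magn[23b] replicate 2. The Cdc25 phosphatase gene twe, whose translation needs bol, read 7.34, 7.44, 6.77 and 6.77 in magn testes, against 7.39, 7.38 and 7.14 in sa testes, with overlap and a difference of -0.22 that was not called. The members rux at -0.04, aurB at -0.16, fzr at -0.23, CycB3 at -0.47, cort at -0.60, fzy at -0.64, Cks85A at -0.86 and borr at -0.90 were not called either.

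Ubiquitin supply and recycling, the system in which Ubi-p63E acts, had few calls outside the mutated gene. Of 18 genes tested 2 were called lower, Ubi-p63E itself and Uba3, and 1 higher, CYLD (median -0.24, which became 0.16 under the ribosomal protein centring). The second polyubiquitin gene Ubi-p5E read 12.94, 12.84, 13.12 and 13.09 in magn testes, against 13.41, 13.05 and 13.17 in sa testes, and the groups overlapped. RpL40, which encodes a fusion of ubiquitin and a ribosomal protein, read 13.75, 13.51, 13.94 and 14.03 in magn testes, against 14.21, 14.28 and 14.15 in sa testes. RpS27A, the other such fusion gene, read 14.84, 14.46, 14.90 and 14.90 in magn testes, against 14.99, 15.08 and 15.07 in sa testes. All magn arrays of both fusion genes were below all sa arrays, by -0.40 and -0.27 on average, and neither was called.

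The deubiquitinase gene CYLD read 12.27, 12.24, 12.04 and 12.03 in magn testes, against 11.05, 10.74 and 9.25 in sa testes, a difference of 1.799 ± 0.33 (adjusted p = 0.000335). Uba3, part of the enzyme that activates the ubiquitin-like protein Nedd8, read 9.26, 9.29, 9.92 and 9.94 in magn testes, against 11.03, 11.20 and 11.86 in sa testes, a difference of -1.76 ± 0.27 (adjusted p = 8.43e-05). The groups did not overlap in either gene, and sa replicate 3 was the lowest array for CYLD and the highest for Uba3. Deubiquitinases that return ubiquitin from conjugates, Usp5, Usp7, Usp8, Usp14, Uch and Uch-L5, lay between -0.44 and 0.17 and were not called, nor were Usp2 at 0.98 and Usp10 at 1.04. Nedd8 at -0.47, Sumo at -0.36, Aos1 at -0.99 and Uba2 at -0.65 completed the list. Of 7 conjugating enzymes 1 was called, morgue at -1.06, and none was called after centring on ribosomal proteins or on all genes, with array weights, or without sa replicate 3 or magn[12c]/magn[23b] replicate 1. Of 26 ligase subunits 2 were higher, SkpB at 1.17 and ago at 1.29, and 3 lower: Cdc23, a subunit of the anaphase-promoting complex, at -1.76, neur at -1.45 and pic at -1.05, and pic lost its call in the same settings and without magn[12c]/magn[23b] replicate 2 or sa replicate 2.

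In several lists of housekeeping genes more members were called lower than higher, in numbers that depended on the scaling. Of 69 mitochondrial ribosomal protein genes 25 were called lower and none higher (median -0.85), with 7 lower and 1 higher under the ribosomal protein centring and 14 lower without sa replicate 3. The largest of these differences was in mRpS29, with 10.19, 10.19, 10.94 and 10.96 in magn testes, against 12.39, 12.56 and 12.96 in sa testes, without overlap. mRpL4, mRpL49 and mRpS28 followed at -1.88, -1.79 and -1.72. Of 31 aminoacyl-tRNA synthetase genes 13 were lower and 2 higher (median -0.79), against 7 lower under that centring. alpha-PheRS read 7.45, 7.69, 8.34 and 8.26 in magn testes, against 9.52, 9.79 and 10.30 in sa testes. The mitochondrial enzyme gene MetRS-m, the larger of the 2 differences upward, read 7.90, 8.49, 8.57 and 8.46 in magn testes, against 6.20, 6.65 and 7.18 in sa testes. The groups overlapped in neither gene. The 28 cytosolic ribosomal protein genes had no call and a median of -0.38.

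Autophagy genes were lower in 5 of 17 cases and higher in none (median -0.94), and 2 stayed lower under the ribosomal protein centring. Atg1, the kinase that starts autophagy, read 8.19, 8.04, 8.79 and 9.14 in magn testes, against 11.80, 11.30 and 11.38 in sa testes, a difference of -2.96 ± 0.25 (adjusted p = 4.62e-07), followed by Atg4a at -1.42, Atg7 at -1.17 and Atg14 at -1.15. Of 10 apoptosis genes Debcl, a Bcl-2 relative, read 8.61, 8.64, 8.56 and 8.61 in magn testes, against 10.85, 10.92 and 11.24 in sa testes, a difference of -2.40 ± 0.18, with a spread among the magn arrays of 0.03 (SD, n = 4), without overlap, and the caspase gene Damm was higher at 1.93. In the heat shock list Hsp68 was lower at -1.87, and Hsc70-1 at 2.53, Hsp60D at 1.16 and Hsc70-2 at 1.01 were higher.

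Most chromatin regulators were not called, which also held for all genes tested, of which 39.0% were called. In the Polycomb group 3 of 12 were lower, not far from the 19.7% over all genes, and none higher (median -0.54). The gene esc read 5.94, 5.98, 5.64 and 5.70 in magn testes, against 7.47, 8.06 and 8.75 in sa testes, without overlap, and its paralog escl and Sce were lower at -1.51 and -1.43. Of 6 genes of the dREAM, Rb and E2F list Dp at -1.34 and Rbf at -1.08 were lower, neither of them under the ribosomal protein centring. Among the spermatocyte chromatin regulators tbrd-2, a testis bromodomain gene, was the 1 of 5 that was called. It read 11.13, 10.94, 10.80 and 11.26 in magn testes, against 9.10, 9.81 and 9.43 in sa testes, and all magn arrays were above all sa arrays. Among 11 meiotic chromosome genes 4 were lower and 1 higher (median -0.27), which became 1 lower, 2 higher and a median of 0.14 under the ribosomal protein centring. As reported, c(2)M at -2.11, tef at -1.44, SMC1 at -1.40 and SMC3 at -1.23 were lower and ord at 1.49 was higher.

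The piRNA pathway, which silences transposons in the germline, had 8 of 23 members called lower and 3 higher (median -0.49), and 4 lower and 6 higher under the ribosomal protein centring. The gene papi, whose protein works on mitochondria in the trimming of piRNAs, read 11.40, 11.60, 11.14 and 11.06 in magn testes, against 9.22, 9.18 and 9.06 in sa testes, a difference of 2.15 ± 0.16 (adjusted p = 1.49e-07). Rhino (rhi), which marks piRNA clusters, read 4.77, 4.67, 5.13 and 5.22 in magn testes, against 6.32, 6.65 and 6.71 in sa testes, a difference of -1.61 ± 0.27. All 4 magn arrays were above the sa arrays for papi and below them for rhi. krimp and tapas were lower at -1.52 and -1.49. The 2 probe sets of tapas disagreed, at -1.49 and 0.51. The germline genes zpg, bam and vls were lower at -1.70, -1.37 and -1.27 in a list of 10 early germline genes of which 3 were lower and 1, stai at 1.77, higher (median -0.26). Under the ribosomal protein centring 1 was lower and 2 were higher, with a median of 0.15.

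Markers of somatic and neighbouring tissues were measured to describe what the samples held. The label of testis was checked on transcripts of the male germline, which were high in all arrays. betaTub85D read 14.47, 14.63, 14.21 and 14.35 in magn testes, against 12.91, 12.46 and 12.90 in sa testes. Mst77F read 15.25, 15.19, 14.87 and 14.94 in magn testes, against 13.89, 13.64 and 13.29 in sa testes. Both were called higher in magn testes, and neither overlapped. Of 12 cyst and hub cell genes 4 were lower and 2 higher, among them shg, so at -2.13 and dome at -1.69 on the lower side and chinmo at 1.70 on the higher. Of 12 sheath muscle genes 5 were called higher and none lower (median 1.19), and 8 under the ribosomal protein centring. Their summed level was 13.32 to 13.88 in the magn arrays and 12.41 to 13.14 in the sa arrays, without overlap. The giant muscle protein gene bt read 10.12, 9.23, 9.79 and 9.49 in magn testes, against 8.36, 6.78 and 5.71 in sa testes. Msp300, another such gene, read 8.87, 9.73, 8.56 and 8.64 in magn testes, against 7.04, 7.27 and 5.33 in sa testes. Both were free of overlap, and sa replicate 3 was the lowest array. Mf and sls were also called, at 2.105 and 1.68, but their probe sets ranged from -1.86 to 2.105 and from -0.77 to 1.68, and neither was called by the mean of its probe sets. The part of muscle in other results was not tested.

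Of 12 hemocyte genes 2 were called higher, near the 19.3% over all genes. Hml (hemolectin), a clotting protein gene, read 7.63, 7.74, 7.71 and 7.53 in magn testes, against 4.32, 5.05 and 4.62 in sa testes. Nplp2 read 13.30, 12.47, 13.69 and 13.79 in magn testes, against 10.07, 11.35 and 11.19 in sa testes. The groups did not overlap in either, while Col4a1 and vkg, 2 collagen IV genes of the same cells, differed by -0.41 and -0.24 and were not called. In 6 fat body genes apolpp, which encodes the main lipid carrier of the blood, was higher at 2.65 and Mtp lower at -1.61. The summed level of a list follows its brightest members. For the hemocyte list it was 13.14 to 14.32 in the magn arrays and 12.72 to 13.08 in the sa arrays. For the fat body list it was 10.79 to 11.83 in the magn arrays and 9.48 to 10.11 in the sa arrays. The median difference was 0.0077 for the hemocyte list, with 6 of 12 members above 0, and -0.22 for the fat body list, with 2 of 6. The per-array medians of both lists overlapped between the groups.

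Accessory gland and duct genes differed between the magn combinations and also among arrays of the same genotype in sa and WT testes. Their log2 summed level was 14.28 and 14.20 in magn[12c]/magn[23b], 17.13 and 17.14 in magn[12c]/magn[12c];pSC2, and 14.63, 15.76 and 16.03 in sa testes. It was 15.53, 17.81 and 14.75 in WT testes, with WT replicate 2 above every magn array, and 13.75, 13.74 and 14.32 in aly testes. Against sa, 1 of 18 genes was higher and 3 lower in magn[12c]/magn[23b], and 11 were higher and none lower in magn[12c]/magn[12c];pSC2. Anp (andropin), a peptide of the ejaculatory duct, read 8.06, 7.52, 10.89 and 12.32 in magn testes, against 5.43, 4.22 and 6.07 in sa testes. Dup99B, a peptide of the same duct, read 9.05, 6.75, 12.12 and 13.70 in magn testes, against 5.67, 4.91 and 7.29 in sa testes. The magn[12c]/magn[12c];pSC2 arrays were the highest in both genes, and the groups overlapped in Dup99B. Although the labels state that accessory glands were removed, both groups held transcripts of these tissues, and the part of such tissue in other results was not tested.

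Detoxification genes, a list of cytochrome P450 and glutathione S-transferase genes, include Cyp4ad1 and Cyp6a2 above. Of 57 tested among 116 on the list 11 were higher and 8 lower, not far from the 19.3% and 19.7% over all genes. Cyp4ac3 read 9.35, 9.16, 9.22 and 8.73 in magn testes, against 5.11, 3.93 and 5.70 in sa testes, a difference of 4.20 ± 0.46 (adjusted p = 4.47e-06), and its WT mean was 5.38. Cyp4p1 read 6.95, 5.54, 8.22 and 8.05 in magn testes, against 10.75, 11.17 and 10.24 in sa testes, a difference of -3.53 ± 0.54. The groups did not overlap in either gene. Cyp316a1, named after its values were seen, read 7.59, 7.68, 7.39 and 6.65 in magn testes, against 3.10, 2.14 and 2.12 in sa testes, at least 10.05-fold higher, with means of 2.11 in aly and 2.11 in WT testes.

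The magn allele combinations were compared with sa separately. In magn[12c]/magn[23b] testes 1769 genes (21.1%) were higher and 2003 (23.9%) lower than in sa testes. In magn[12c]/magn[12c];pSC2 testes 1452 (17.3%) were higher and 1438 (17.2%) lower. Both combinations shared the 3 sa arrays; 2405 genes were called the same way in both and 25 opposite ways. The combinations differed directly in 850 genes (10.2%), and in 478 (14.7%) of the 3261 genes called between magn and sa. Of these 478, 410 were higher in magn[12c]/magn[23b], and 364 of the 410 were among the genes higher in magn than in sa testes. Without magn[12c]/magn[12c];pSC2 replicate 2 the count of 478 was 258. The median difference of the sperm chromatin list was 2.41 in magn[12c]/magn[23b] and 2.18 in magn[12c]/magn[12c];pSC2, and that of the cup and comet list was 2.15 in magn[12c]/magn[23b] and 1.16 in magn[12c]/magn[12c];pSC2.

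Among called genes, the largest differences between the combinations with the higher level in magn[12c]/magn[23b] were in cysu, SPoCk, Parp16 and HP1e. The values of cysu were 7.03, 7.78, 4.59 and 3.75 in magn testes, against 3.15, 3.31 and 2.50 in sa testes, a gap of 3.24 between the combinations. HP1e, a testis paralog of heterochromatin protein 1, read 7.26, 7.15, 4.86 and 4.09 in magn testes, against 4.06, 3.49 and 3.44 in sa testes, a gap of 2.73, with a WT mean of 9.73. In both genes the magn[12c]/magn[12c];pSC2 arrays lay between the other magn arrays and the sa arrays. Parp16 read 8.76, 8.99, 6.21 and 5.94 in magn testes, against 5.596, 5.13 and 6.10 in sa testes, so that only the magn[12c]/magn[23b] arrays stood clear of the sa arrays. In the opposite direction the gaps were -3.17 in Muc4B, -2.38 in Eig71Ea, -2.30 in Pdk and -2.16 in Gr47b. Muc4B read 2.38, 2.55, 5.28 and 5.99 in magn testes, against 7.18, 6.46 and 5.42 in sa testes, and its pSC2 arrays overlapped with the sa arrays.

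The levels of WT and aly testes, which were not part of the contrast that chose the called genes, placed the comparison in a wider range. Genes called higher in magn had median levels of 10.13 in magn, 7.86 in sa, 4.26 in aly and 10.89 in WT testes. Genes called lower had median levels of 8.04 in magn, 9.69 in sa, 10.04 in aly and 7.73 in WT testes. Over all genes tested the medians were 9.11 in magn, 9.17 in sa, 9.08 in aly and 8.75 in WT testes. The WT mean was nearer to the magn than to the sa mean in 71.8% of the genes called higher, in 86.8% of those called lower and in 71.4% of all genes tested. The aly mean was nearer to the magn than to the sa mean in 13.1% of the genes called higher, in 16.8% of those called lower and in 26.2% of all genes tested.

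**Figure D4:**
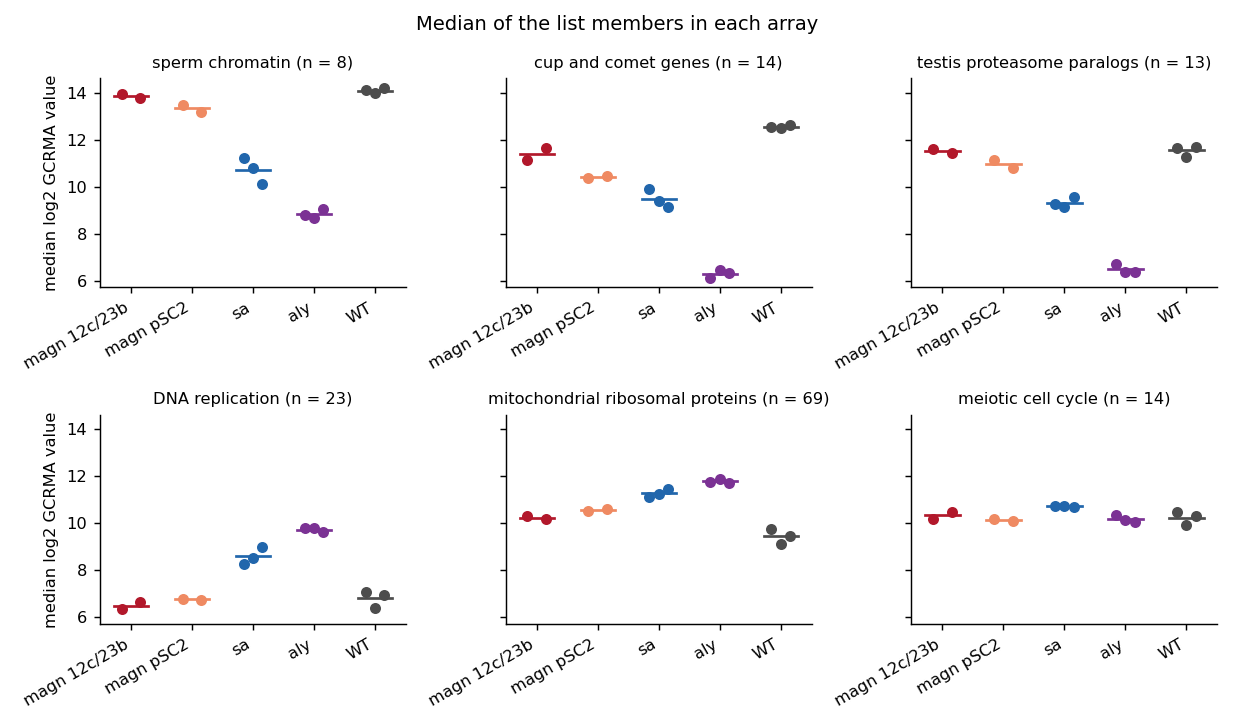
Median log2 GCRMA value of the members of 6 gene lists in each of the 13 arrays (points), with group means (lines), for the magn combinations, sa, aly and WT. In the sperm chromatin list the magn arrays, at 13.18 to 13.92, lie near the WT arrays and above the sa arrays, at 10.12 to 11.23, and in the DNA replication list the magn arrays, at 6.34 to 6.80, lie near WT and below sa, at 8.27 to 8.99.

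Called genes were then counted by chromosome arm. Of 40 chromosome 4 genes tested 19 (47.5%) were higher and 3 lower in magn testes, against 19.3% and 19.7% of all genes, and the median difference was 1.06. In the combinations 15 were higher in magn[12c]/magn[23b] and 17 in magn[12c]/magn[12c];pSC2. Without sa replicate 3, whose values for these genes were often the lowest, the count was 12. Examples, chosen after their values were seen, were yellow-h, RhoGAP102A and mav. yellow-h read 8.44, 8.38, 8.02 and 7.05 in magn testes, against 4.44, 4.30 and 3.00 in sa testes. RhoGAP102A read 7.69, 7.62, 5.64 and 5.49 in magn testes, against 3.14, 2.97 and 2.61 in sa testes. The gene mav (maverick), which encodes a TGF-beta ligand, read 8.43, 8.11, 8.74 and 8.70 in magn testes, against 6.64, 6.36 and 4.66 in sa testes. In each of these sa replicate 3 was the lowest array, and RhoGAP102A passed the filter only through the magn arrays. The muscle gene bt, the fat body gene apolpp and Taf3, named above, also lie on this chromosome. Median levels of its genes were 9.22 in magn, 8.13 in sa, 5.76 in aly and 8.14 in WT testes.

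Of 1308 X chromosome genes tested 151 (11.5%) were higher and 380 (29.1%) lower, with a median of -0.53, and the numbers became 222 higher and 190 lower under the ribosomal protein centring. On the large autosomal arms between 18.02% and 23.2% of genes were higher and between 16.7% and 19.4% lower. Median levels of X genes were 8.52 in magn, 9.04 in sa, 9.11 in aly and 8.12 in WT testes.

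**Figure D5:**
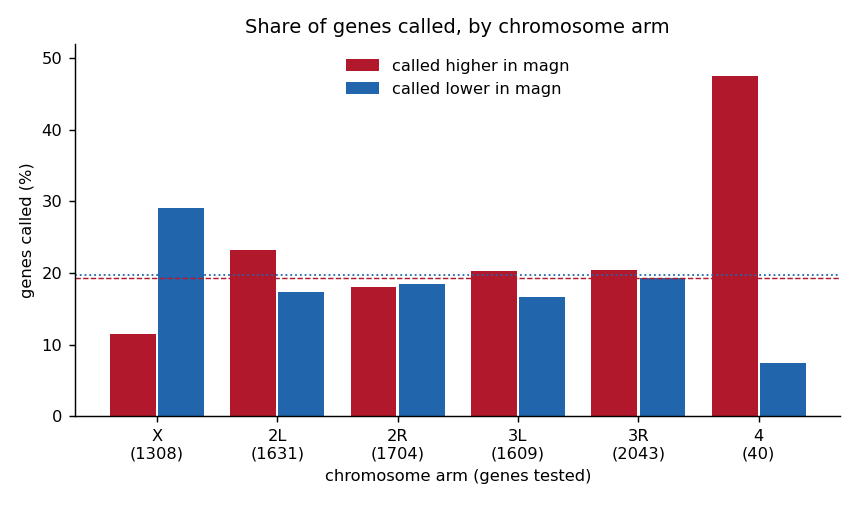
Percent of genes tested on each chromosome arm that were called higher (red) or lower (blue) in magn than in sa testes; dashed and dotted lines are the shares over all genes, 19.3% higher and 19.7% lower. Of the 6 arms drawn, which leave out the 2 genes tested on the Y chromosome, chromosome 4 has the highest share called higher, 47.5% of 40 genes, and the X chromosome the highest share called lower, 29.1% of 1308.

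Some genes were detected on only 1 side of the comparison. In 24 of the genes called higher all sa arrays were at or under 4 and all magn arrays above 6, and in 19 of those called lower all magn arrays were at or under 4 and all sa arrays above 6. The 24 detected in magn testes included t-Grip128, ZnT33D, Cyp316a1, Arr1, Gr33a and phyl. The arrestin gene Arr1 read 9.16, 9.32, 7.503 and 7.43 in magn testes, against 2.86, 2.44 and 2.82 in sa testes. The gustatory receptor gene Gr33a read 8.88, 8.68, 7.86 and 7.57 in magn testes, against 2.64, 3.59 and 3.26 in sa testes. The gene phyl (phyllopod), which encodes an adaptor of a ubiquitin ligase in the developing eye, read 7.06, 7.45, 6.997 and 6.79 in magn testes, against 2.99, 2.92 and 2.64 in sa testes. Gr33a and phyl were also under 4 in the other strains, with means of 2.19 and 2.44 in aly and 2.21 and 2.57 in WT testes, whereas Arr1 averaged 2.51 in aly and 9.55 in WT testes. The 19 detected in sa testes included cid, nSyb, Ir85a, Rif1, plx and TfAP-2. The gene plx read 2.15, 2.12, 2.29 and 2.60 in magn testes, against 7.54, 7.67 and 7.28 in sa testes. TfAP-2, a transcription factor gene, read 3.52, 2.56, 2.56 and 2.56 in magn testes, against 6.06, 6.19 and 6.01 in sa testes. TfAP-2 was under 4 in aly and WT testes as well, with means of 2.56 and 2.52. These genes were picked for their values and are given as a description. Probe sets outside the 1-symbol rule were fitted apart: of 740 with no gene symbol 93 were called higher and 114 lower, and of 289 with several symbols 81 were called higher and 42 lower.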

How the data were processed

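Total RNA of dissected testes was hybridised to 13 Affymetrix Drosophila 2 arrays, 1 per sample. The authors deposited log2 values made with GCRMA, per the submitters' processing notes; GCRMA corrects background by probe base content and normalizes between arrays by quantiles, and its version is not given in the sources used here. No scanner files were used, and precision is limited by how many arrays each group has. Of 18952 probe sets, 13647 had exactly 1 gene symbol and 13544 of these were matched to the RefSeq gene table (Release 6 plus ISO1 MT), which gave current symbols, chromosome arms and neighbours. Probe sets above log2 4 in at least 3 of the 7 magn and sa arrays were kept, and the highest mean stood for a gene. A linear model with moderated variances that follow intensity (lmFit, eBayes) was fitted with limma 3.58.1, under R 4.3.3, to all 13 arrays, so that the 4 genotypes shared the estimate of spread. P-values were adjusted by Benjamini-Hochberg over the 8369 genes tested, and calls needed an adjusted p under 0.05 and a 2-fold difference. A separate fit with the magn combinations as groups gave the combination results. Tables and plots used pandas 2.3.3, numpy 2.4.6, matplotlib 3.10.9 and Python 3.11.15. The procedure was tested on simulated data.

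Groups came from the titles. The arrays compared, the gene lists and the rules were chosen with earlier results of these data known. Genes named were the mutated genes, the 12 largest differences each way among called genes without overlap (values under 4 raised to 4, symbols that are only numbers passed over), up to 4 called members of each of 46 lists, any member of the testis TAF, tMAC, meiotic cell cycle and ubiquitin supply lists, and 4 genes each way for the combinations. Other genes were named after their values were seen: the neighbours of Ubi-p63E and sa, the chromosome 4 examples, genes detected on 1 side, Rif1, and further members given to complete an account of a list. Alternatives changed the filter, the scaling, the variance model, the fold minimum, the probe set rule, the arrays in the fit, and added the replicate number as a block. The labels do not say whether replicate numbers pair the arrays. Deviations of same-numbered magn and sa arrays correlated at -0.14 to 0.03 in 4 pairs. Over all 23 same-numbered pairs the range was -0.28 to 0.25, with 7 above 0.1. The 2 arrays of a magn combination have opposite deviations from their mean, so these values cannot decide whether arrays were paired.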

Additional observations from a re-analysis of the deposited data

Results flagged for a closer look

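In 7 named genes and 3 list medians 1 of the 4 magn arrays stood apart from the other magn arrays. The tests covered 271 values, and chance flags about 1 in 20 such groups. The 10 flagged here were fewer than that rate would give. The arrays that stood apart were magn[12c]/magn[23b] replicate 1 for MetRS-m at 7.90, TfAP-2 at 3.52, soti at 9.25 and the median of the antimicrobial peptide and recognition list at 7.77. They were magn[12c]/magn[23b] replicate 2 for RpS27A at 14.46, vkg at 8.83, the median of the cytosolic ribosomal proteins at 13.90 and that of the sperm leucyl aminopeptidases at 14.22. They were magn[12c]/magn[12c];pSC2 replicate 1 for path at 5.88 and replicate 2 for Psf1 at 4.05.

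In 32 named genes the magn combinations differed from each other by the linear model (limma, a 2-fold gap or more with an adjusted p under 0.05), so that their differences from the shared sa arrays were unequal. The values that follow are magn[12c]/magn[23b] minus magn[12c]/magn[12c];pSC2, with 2 arrays each. Among spermatid and testis paralog genes the difference was 2.097 for t-cup, 1.53 for sunz, 1.63 for t-Grip128, 1.04 for IFT52, 1.33 for fzo, 1.79 for Prosalpha4T1, 1.20 for Prosbeta4R1, 1.54 for Prosbeta5R2, 1.16 for RpL10Aa, 1.19 for RpS28-like, 1.71 for RpS28a and 1.44 for Hsc70-1. Among the genes with the largest gaps it was 3.24 for cysu, 2.96 for SPoCk, 2.80 for Parp16 and 2.73 for HP1e, and -3.17 for Muc4B, -2.38 for Eig71Ea, -2.30 for Pdk and -2.16 for Gr47b. Among cell cycle and replication genes it was 1.72 for Cks30A, 1.61 for CycB and 1.31 for Psf3, and it was -1.10 for the ligase gene pic. It was -1.93 for vis of tMAC. For the neighbours of Ubi-p63E it was -1.42 for Ccz1 and -1.16 for Lamtor4. For the remaining genes it was 1.77 for Arr1, 1.07 for Gr33a, 2.09 for RhoGAP102A, 1.36 for Cyp6a2 and -1.89 for Cyp4p1.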

How the results depend on the processing

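Leaving out each of the 7 arrays in turn gave 1485 to 1671 genes higher and 1473 to 1796 lower, the fewest of each without sa replicate 3. For magn[12c]/magn[23b] against sa the ranges were 3588 to 3983 in all, 1711 to 1833 higher and 1876 to 2150 lower, and for magn[12c]/magn[12c];pSC2 2584 to 3066 in all, 1213 to 1499 higher and 1250 to 1567 lower. Of the called genes 258 to 457 differed between the combinations. Centring on ribosomal protein genes left 842 genes lower, 876 in magn[12c]/magn[23b] and 908 in magn[12c]/magn[12c];pSC2, and turned 13 of 46 list medians and that of all genes (0.19) from below to above 0. Among these were spermatocyte chromatin regulators (0.0885), meiotic chromosomes (0.14), ubiquitin supply (0.16), cytosolic ribosomal proteins (0.0214) and spermatid mitochondria (0.17). The others were ubiquitin E2 enzymes (0.23), intraflagellar transport and tektins (0.33), heat shock (0.34), detoxification (0.25), apoptosis (0.16), early germline (0.15), cyst and hub cells (0.32) and fat body (0.18). This follows from the shift of 0.41 in all differences. The cytosolic ribosomal proteins were the genes centred on, so their own median near 0 was fixed in advance by the centring. Without single arrays the median of the spermatocyte list was -0.0427 to 0.49, the lowest without sa replicate 3, against 0.32 as reported, and the cause was not tested. With no fold minimum, 3055 genes were lower, 3234 in magn[12c]/magn[23b] and 2678 of 4602 called in magn[12c]/magn[12c];pSC2, and 918 differed between the combinations. A 4-fold minimum left 727 higher and 351 lower, 953 and 427 of 1380 in magn[12c]/magn[23b], 629 and 339 of 968 in magn[12c]/magn[12c];pSC2, and 63 between the combinations. The replicate block gave 1551 higher and 1553 lower, and 426 between the combinations; it ended the call of 5 of the 225 genes named. Of those genes 20 lost and 10 gained a call under the ribosomal protein centring, 11 lost and 2 gained one with array weights, and 8 lost one without sa replicate 3 (Hsc70-2, Prosalpha4, Rbf, Taf3, Taf8, bol, morgue and pic). Leaving out any other array ended the call of at most 8, among Dup99B, Muc4B, Parp16, Hsc70-2, Hsp60D, Prosalpha4, SMC3, Taf12L, Taf3, bol, morgue and pic. Genes near a log2 value of 4 have few arrays above background, and their differences are the least certain.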

Other observations

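Of 4 sperm leucyl aminopeptidase genes, which encode abundant sperm proteins, 1 was called higher in magn testes and none lower, and the list median was 0.80. Of 10 genes of spermatid individualization, the step that gives each sperm its own membrane, 1 was higher and none lower, and none was called without sa replicate 3, with array weights or under the replicate block. Of 14 spermatocyte genes 3 were higher and 1 lower, among them sa itself, bol and CycB described above, and 1 was higher without sa replicate 3. Of the 2 Y-linked genes tested 1 was higher and none was with array weights; 1 was higher in magn[12c]/magn[23b] and 1 lower in magn[12c]/magn[12c];pSC2. Over all genes 19.3% were called higher, and these counts are too small to be set against that share.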
